A study of Mus musculus with 8 samples.

Results

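The genes described here are 46 imprinted mouse genes, taken by symbol from a list of imprinted clusters and grouped into 17 domains. The list was chosen with earlier results of these data known. All 46 symbols were found among the 24421 genes of the count tables. RNA came from R1 mouse embryonic stem cells (ESCs), an established pluripotent line, in a pair of states. Undiff cells had not been differentiated, and the study's methods describe them as kept with leukaemia inhibitory factor. Day4 cells had grown as embryoid bodies without that factor and had then received retinoic acid (RA) for 4 days, at 2 µM by the study's methods and design text (a treatment label gives the same figure in mM). The tissue label gives embryoid bodies for every sample, Undiff included. Polyadenylated RNA of 2 separately grown and treated cultures per state was run as nanopore libraries (Oxford Nanopore Technologies, ONT) with the Direct RNA kit, which reads the RNA strand itself, and with the cDNA kit, which reads amplified cDNA copies, giving 8 libraries in 4 groups of 2. All samples share 1 cell line, and the labels name no engineered allele in any group.

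Imprinted genes are expressed mainly from the chromosome inherited from one parent. Most lie in domains that share an imprinting control region, a stretch of DNA whose methylation is set in the egg or the sperm and kept through the cell divisions of the embryo. Many act on fetal and placental growth, on the cell cycle or on signalling by insulin-like growth factors, and a number of paternally expressed members are abundant in embryonic mesoderm and in mesenchymal tissue. Gene counts do not separate the parental copies, so the values below are the summed output of both.

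Direct RNA libraries held 283461 to 907489 reads on genes and cDNA libraries 948657 to 2088592. Levels are given as CPM, reads per 1e6 reads on genes of the library. The limit that a count of 0 allows was set at 3 reads, which is between 1.44 and 10.6 CPM depending on the library. All 10 markers of pluripotent stem cells fell in Day4 on both platforms, and their summed level went from 11715 and 14018 CPM to 123 and 550.5 CPM in Direct RNA and from 21596 and 24702 CPM to 86.5 and 951 CPM in cDNA. The Undiff libraries therefore carry the defining markers of their label, and replicate 2 of Day4 kept more of them than replicate 1.

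Reads on the imprinted genes took a larger share of every Day4 library than of any Undiff library. In Direct RNA the share was 0.192% (95% Wilson interval 0.178 to 0.207) and 0.216% (0.207 to 0.226) in the Undiff replicates, against 1.94% (1.89 to 2.00) and 1.53% (1.50 to 1.56) in Day4. In cDNA it was 0.265% (0.255 to 0.276) and 0.223% (0.217 to 0.230) in Undiff, against 0.588% (0.576 to 0.602) and 0.787% (0.775 to 0.799) in Day4. The intervals cover counting error only, and the groups do not overlap on either platform. Between 32 and 43 of the 46 genes had a read in a given library.

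**Figure D1:**
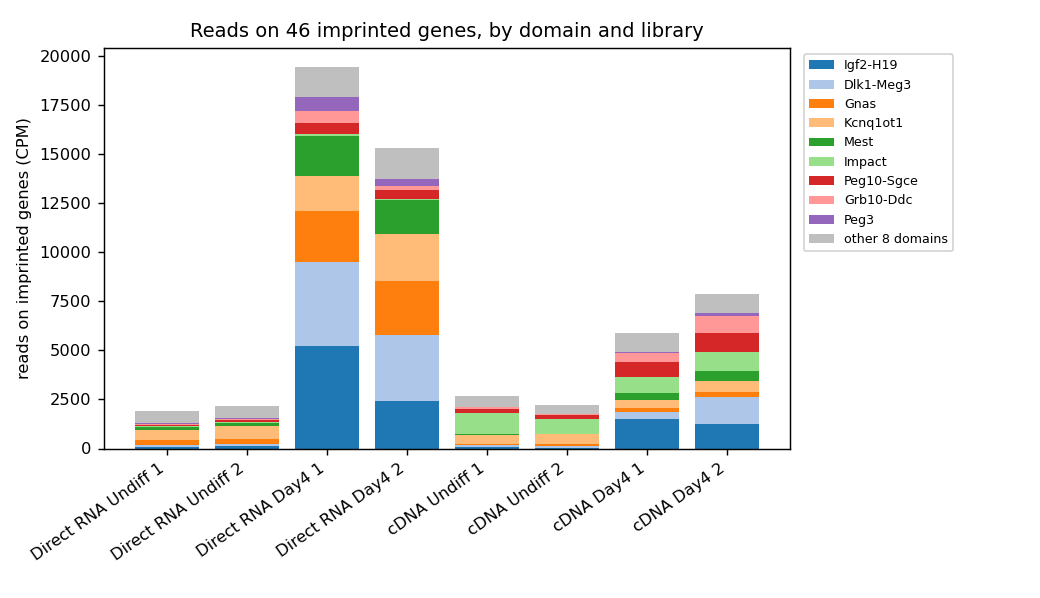
Stacked bars give the reads on the 46 imprinted genes in CPM for each of the 8 libraries, coloured by imprinted domain, with the 8 smallest domains in grey. In Direct RNA the Day4 bars reach 19445 and 15289 CPM and the Undiff bars 1923 and 2162 CPM; in cDNA the Day4 bars reach 5885 and 7866 CPM and the Undiff bars 2650.1 and 2234 CPM.

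Calls between the states were made with the DESeq2 Wald test. A call needed a mean normalized count of 5 or more, an adjusted p of 0.05 or less, and a log2 fold change (log2FC, Day4 over Undiff) of 1 or more in either direction. In Direct RNA 13 imprinted genes rose in Day4, while 9.54% of all 9646 genes with that mean count did so, and 1 fell, against 7.67% of all. In cDNA 17 rose, against 8.69% of 10271 genes, and 2 fell, against 9.24%. The mean count was reached by 32 of the 46 in Direct RNA and by 37 in cDNA. A total of 13 rose on both platforms, where 6.19% of 8720 genes with the mean count on both did so, and 1 fell on both, against 5.18%. With the edgeR quasi-likelihood test the counts were 16 higher and 2 lower in Direct RNA, against 18.7% and 15.1% of all genes, and 20 higher and 3 lower in cDNA, against 17.1% and 15.5%. In Direct RNA both Day4 libraries lay above both Undiff libraries in CPM for 37.3% of the 9646 genes and below for 30.3%. In cDNA this held for 43.1% and 23.2% of the 10271. A lack of overlap between the states, where given below, therefore sets no gene apart by itself.

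The median log2FC was 1.32 over the 43 imprinted genes with a read in Direct RNA, against 0.06 over all 15451 such genes, and 1.44 over 40 imprinted genes in cDNA, against 0.04 over 16669. By the parental copy that is known to be used, 8 of the 23 paternally expressed genes rose in Direct RNA, among 13 with the mean count, and 11 in cDNA, among 16, and 0 fell. Of the 16 maternally expressed genes 3 rose and 1 fell in Direct RNA, among 12 with the mean count, and 4 rose and 2 fell in cDNA, among 14. Of the 7 genes whose imprint depends on isoform or tissue, all with the mean count, 2 rose on each platform. The shares of all genes with the mean count are those given above, 9.54% higher and 7.67% lower in Direct RNA and 8.69% and 9.24% in cDNA. These counts are descriptive, and the classes were not tested against each other.

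Day4 cultures also gained RNA of several other cell types. The counts that follow stand beside 9.54% of all genes higher and 7.67% lower in Direct RNA and 8.69% and 9.24% in cDNA. Of 10 markers of extraembryonic endoderm 6 rose in Direct RNA, among 6 with the mean count, and 4 in cDNA, among 7, and their summed level went from 14.3 and 26.4 CPM to 1115 and 725 CPM in Direct RNA and from 12.6 and 14.4 CPM to 301 and 333 CPM in cDNA. Of 10 markers of mesenchyme, of which 7 had the mean count on each platform, 6 likewise rose in Direct RNA and 4 in cDNA, from 20.1 and 22.0 CPM to 3104 and 1356 CPM and from 10.5 and 6.70 CPM to 247 and 288 CPM. Among these, Gata6, Ttr, Col1a2 and Col3a1 had 0 reads in all 4 Undiff libraries. Of 4 blood markers, of which 2 had the mean count in Direct RNA and 3 in cDNA, the embryonic globins Hbb-bh1 and Hba-x rose on both platforms, from 0 reads in every Undiff library, while Ptprc had 0 reads throughout. Of 10 neural markers, of which 4 had the mean count in Direct RNA and 6 in cDNA, 1 (Ncam1) rose and 2 (Tubb3 and Stmn2) fell on each platform. Of 6 endothelial markers, 4 with the mean count on each platform, 3 rose in Direct RNA and 1, Emcn, also in cDNA, with summed levels from 129 and 76.03 CPM to 162 and 210.1 CPM by Direct RNA and from 33.7 and 36.4 CPM to 84.2 and 96.8 CPM by cDNA. Of 8 muscle markers, of which 4 had the mean count in Direct RNA and 6 in cDNA, 1, Acta2, rose on each platform. In bulk RNA, fewer cells of a type and less RNA per cell cannot be told apart. The part that the changed cell composition has in the results below was not tested.

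**Figure D2:**
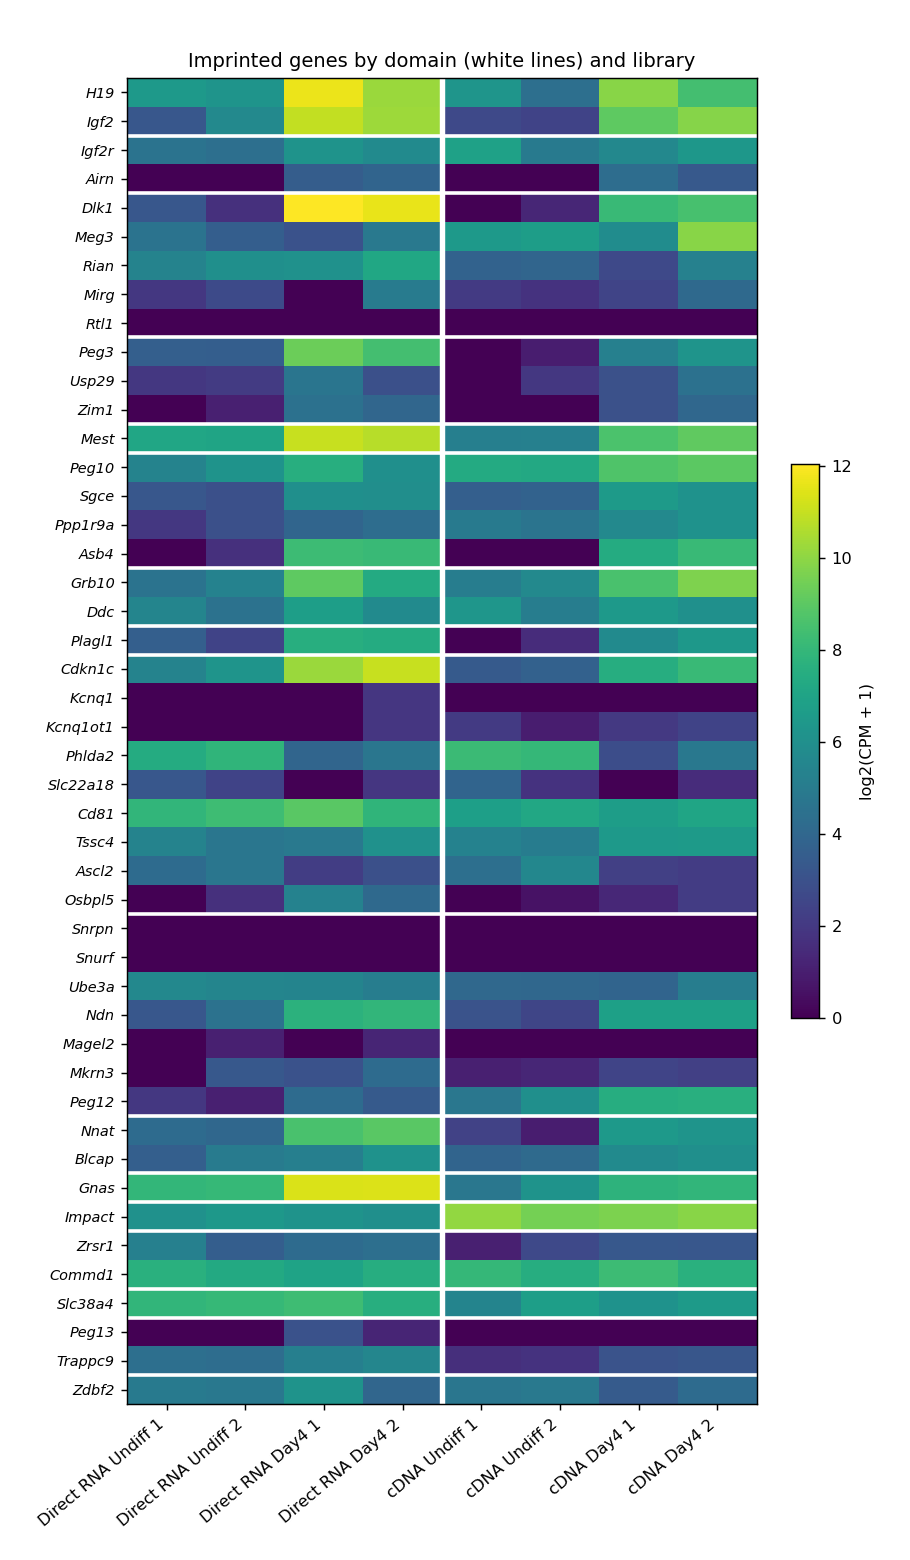
The heatmap gives log2(CPM + 1) of each of the 46 genes (rows, ordered by domain, white lines between domains) in each of the 8 libraries (columns, Direct RNA left and cDNA right). Dlk1, Igf2, Mest, Asb4 and Plagl1 are brighter in each Day4 library than in each Undiff library, Phlda2 and Ascl2 are darker, and Rtl1, Snrpn and Snurf are at 0 throughout.

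The Igf2-H19 domain lies on chr7. Igf2 (chr7:142650766-142666816, minus strand, GRCm38), a paternally expressed growth factor of the embryo, was at 8.61 and 49.6 CPM in the Direct RNA libraries of Undiff and at 1961 and 1234 CPM in those of Day4. It rose by a log2FC of 4.91 (SE 0.95, adjusted p = 9.73e-06). In cDNA it went from 5.27 and 4.31 CPM to 525 and 915 CPM, a log2FC of 6.71 (SE 0.54, adjusted p = 3.18e-32). The states were far apart on both platforms, and the Undiff replicates of Direct RNA differed most, with 3 and 45 reads. The Direct RNA value was 6.86 without Undiff replicate 2 and 3.88 without Day4 replicate 1.

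H19 (chr7:142575529-142578143, minus strand) is the maternally expressed long noncoding RNA of the same domain. It was at 86.1 and 74.9 CPM in Undiff and at 3270.3 and 1199.9 CPM in Day4 in Direct RNA, and rose by 4.43 on the log2 scale (SE 0.66, adjusted p = 2.77e-09). In cDNA the levels were 75.9 and 20.1 CPM in Undiff and 967 and 342 CPM in Day4, a log2FC of 3.03 (SE 1.03, adjusted p = 0.0323). Both libraries of Day4 lay above both of Undiff on each platform. The cDNA call was lost without Undiff replicate 2 or without Day4 replicate 2, with log2FC values from 2.33 to 3.44. It was kept without Undiff replicate 1, at 4.53, and without Day4 replicate 1, at 2.29. The Direct RNA value was 3.80 without Day4 replicate 1 and 5.17 without Day4 replicate 2. The Igf2 and H19 counts together made this the domain with the most reads in the first Day4 replicate of both platforms, with 5232 CPM by Direct RNA and 1492 CPM by cDNA, while in the second replicate the Dlk1-Meg3 domain had more, with 3362 CPM against 2434 CPM by Direct RNA and 1369.5 CPM against 1256 CPM by cDNA.

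H19 is also the host transcript of miR-675, whose mature arms are shown because their precursor lies inside an H19 exon (RefSeq, GRCm38.p6, minus strand, seed bases 2 to 8 in capitals; 84 bases of H19 exon overlap the precursor in GENCODE). The 5p arm is at chr7:142577112-142577133 and the 3p arm at chr7:142577078-142577099.
mmu-miR-675-5p: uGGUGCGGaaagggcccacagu
mmu-miR-675-3p: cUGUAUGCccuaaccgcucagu
The row for Mir675 held 0 reads in every library, and the H19 reads above are on the host transcript. The kits take polyadenylated RNA, so mature microRNAs were not measured here.

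In the Dlk1-Meg3 domain on chr12, the protein-coding gene and the noncoding RNAs gave different values. Dlk1 (chr12:109452823-109463336, plus strand), a paternally expressed membrane protein related to Notch ligands that is used by immature mesenchymal and other progenitor cells, had 3 and 2 reads in Undiff and 1192 and 2332 reads in Day4 in Direct RNA. These are 8.61 and 2.20 CPM against 4205 and 3162 CPM, and the log2FC was 9.22 (SE 0.59, adjusted p = 5.17e-51), or 8.02 without Undiff replicate 2 and 7.74 without Day4 replicate 1. In cDNA it had 0 and 3 reads in Undiff and 379 and 760 reads in Day4, a ratio of the pooled counts per depth of 340 (exact 95% counting interval 116 to 1649; adjusted p = 1.46e-19). No other imprinted gene called higher in Direct RNA had a larger log2FC.

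The maternally expressed noncoding RNAs of the domain did not pass the DESeq2 test. Meg3 (chr12:109541001-109571726, plus strand), the lead transcript of the set, was at 23.0 and 11.0 CPM in Undiff and at 7.06 and 28.5 CPM in Day4 in Direct RNA (log2FC 0.09, SE 0.97, adjusted p = 0.983). In cDNA it was at 86.4 and 103 CPM in Undiff and at 57.7 and 949 CPM in Day4 (log2FC 1.61, SE 1.21, adjusted p = 0.537). The states overlap on both platforms, and a single library, cDNA Day4 replicate 2, held 1972 reads, while the other 3 cDNA libraries held between 76 and 216. The edgeR test called Meg3 higher in cDNA, with a log2FC of 2.03 and an adjusted p of 1.06e-05.

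Rian, a host of small nucleolar RNAs, had 14 and 57 reads in Undiff and 19 and 104 in Day4 in Direct RNA (log2FC 0.87, SE 0.57, adjusted p = 0.437), and 12 and 30 against 7 and 79 in cDNA (0.28, SE 0.81, adjusted p = 0.938). Mirg, a host of microRNAs, had 0 to 34 reads per library. In Meg3, Rian and Mirg alike, Day4 replicate 2 was above Day4 replicate 1 in CPM on both platforms. Rtl1, a retrotransposon-derived protein gene, had 0 reads in all 8 libraries, and its exons overlap several microRNA genes on the other strand.

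The Kcnq1ot1 domain, also on chr7, held the imprinted genes that fell as well as one of those that rose. Cdkn1c (chr7:143458339-143461050, minus strand), the maternally expressed cyclin-dependent kinase inhibitor p57, was at 40.2 and 73.8 CPM in Undiff and at 1192 and 2057 CPM in Day4 in Direct RNA. It rose by 4.58 on the log2 scale (SE 0.38, adjusted p = 4.42e-31). In cDNA it went from 9.49 and 12.4 CPM to 178 and 285 CPM, a log2FC of 3.94 (SE 0.49, adjusted p = 4.13e-13).

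Its neighbour Phlda2 (chr7:143501545-143503150, minus strand), a maternally expressed pleckstrin-homology protein known for restraining placental growth, changed the other way. It was at 166 and 235 CPM in Undiff and at 14.1 and 25.8 CPM in Day4 in Direct RNA, and fell by 3.23 on the log2 scale (SE 0.54, adjusted p = 1.54e-07). In cDNA it went from 296 and 260.5 CPM to 6.07 and 27.0 CPM, a log2FC of -4.29 (SE 0.52, adjusted p = 6.13e-14). The states did not overlap on either platform. Without Direct RNA Undiff replicate 2 the log2FC was -2.83 and the call in Direct RNA was lost. In cDNA it was -3.59 without Day4 replicate 1 and -5.41 without Day4 replicate 2.

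Ascl2 (chr7:142966829-142969264, minus strand), a maternally expressed transcription factor required by trophoblast and also a Wnt target in stem cells, had 19 and 97 cDNA reads in Undiff and 5 and 7 in Day4. Its log2FC in cDNA was -3.32 (SE 0.75, adjusted p = 0.000263), and the call was lost without Undiff replicate 2 or Day4 replicate 2 (-2.91 to -2.50). In Direct RNA it had 6 and 23 reads in Undiff and 1 and 5 in Day4, with a log2FC of -1.76 (SE 1.06, adjusted p = 0.373), and edgeR called it lower at -2.02. Of the 8 trophoblast markers 2 had the mean count on each platform, and 1 fell in Direct RNA, where 7.67% of all genes did, and 0 in cDNA, where 9.24% did.

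The rest of the domain was not called. Cd81, a tetraspanin, was between 102 and 490.4 CPM in all 8 libraries (log2FC 0.24, SE 0.39, in Direct RNA and -0.44, SE 0.42, in cDNA). Tssc4, a protein of the spliceosome, had a log2FC of 0.48 (SE 0.71) in Direct RNA and, in cDNA, of 1.03 (SE 0.49, adjusted p = 0.184), where Undiff was at 39.0 and 32.1 CPM and Day4 at 91.0 and 93.4 CPM. Slc22a18, a membrane transporter, had at most 13 reads in a library, and the edgeR test called it lower in cDNA. Osbpl5, an oxysterol-binding protein, had 0 and 2 reads in Undiff and 11 and 12 in Day4 in Direct RNA, a pooled ratio of 14.2 (exact 95% counting interval 3.50 to 124; adjusted p = 0.0513), and at most 7 in cDNA. The edgeR test called it higher in Direct RNA. Kcnq1, a potassium channel, had 2 reads in 1 library and 0 in the others, and the noncoding RNA Kcnq1ot1, for which the domain is named, had between 0 and 9.

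**Figure D3:**
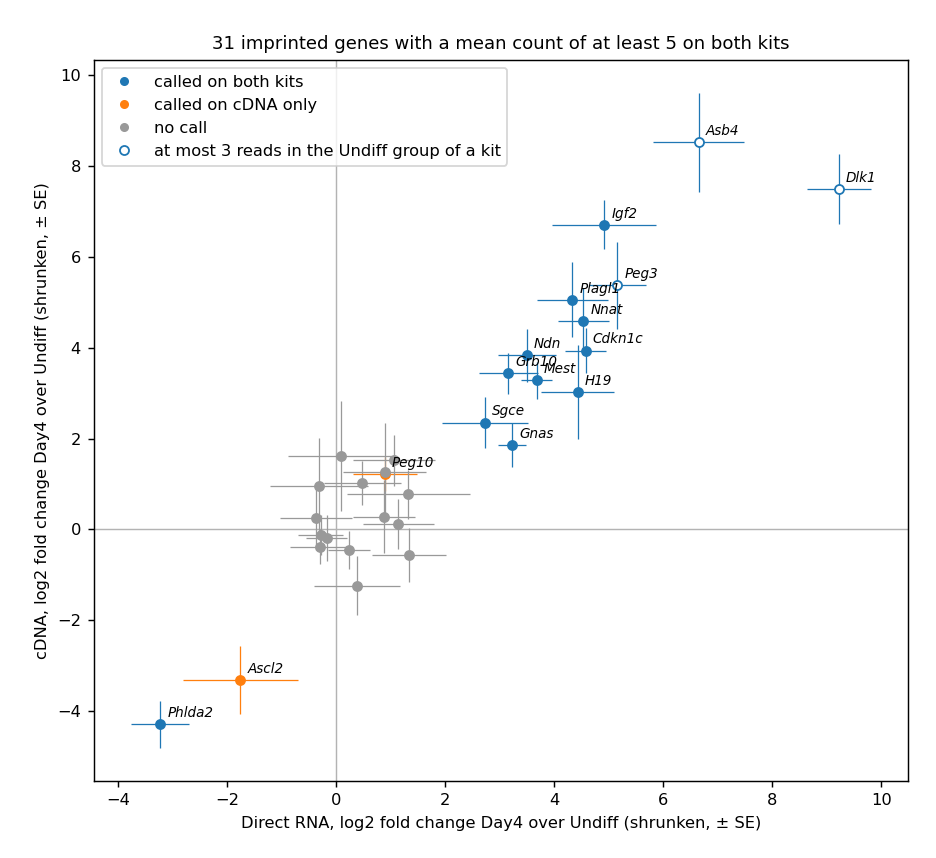
Each point is 1 of the 31 imprinted genes with a mean count of at least 5 on both platforms, placed by its log2FC of Day4 over Undiff in Direct RNA (horizontal) and cDNA (vertical), with bars of 1 SE. The 13 genes called higher on both platforms lie to the upper right and Phlda2 to the lower left; hollow points had at most 3 Undiff reads on a platform, so that their fitted values depend on the shrinkage and are no measure of size.

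Peg3 (chr7:6703892-6730431, minus strand), a paternally expressed zinc finger protein, had 4 and 10 reads in Undiff and 185 and 253 in Day4 in Direct RNA. These are 11.5 and 11.0 CPM against 653 and 343 CPM, and it rose by 5.16 on the log2 scale (SE 0.53, adjusted p = 8.16e-20). In cDNA it had 0 and 2 reads in Undiff and 48 and 153 in Day4, a pooled ratio of 89.9 (exact 95% counting interval 24.6 to 747; adjusted p = 1.15e-06). The replicates of Undiff were almost equal in Direct RNA, and Day4 was clear of them.

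In the GENCODE annotation, Peg3 and Usp29 are read in opposite directions with 146 bases between their starts (chr7:6730432-6730577, plus strand of GRCm38.p6). This lies within the stretch known as the control region of the domain. The bases between the starts are shown with the 5 CpG dinucleotides, the positions that can carry the methylation imprint, in capitals. They were read from the RefSeq promoter window of Usp29, and RefSeq places both starts slightly differently.
Peg3-Usp29: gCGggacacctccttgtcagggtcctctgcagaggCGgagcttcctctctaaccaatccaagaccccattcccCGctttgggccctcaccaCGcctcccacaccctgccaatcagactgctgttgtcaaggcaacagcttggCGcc
Usp29, a paternally expressed ubiquitin protease, had 1 and 3 reads in Undiff and 7 and 5 in Day4 in Direct RNA (log2FC 1.67, SE 1.20, adjusted p = 0.515), and 0 and 6 against 9 and 45 in cDNA (2.37, SE 1.08, adjusted p = 0.162). It passed neither DESeq2 test. The edgeR test called it higher in cDNA. Zim1 is a maternally expressed zinc finger gene of the domain. It had 0 reads in the cDNA libraries of Undiff and 9 and 32 in those of Day4. With Undiff set at 3 reads, this is 12.2-fold higher over the pooled depth. Zim1 was called higher in cDNA (adjusted p = 0.0135). This call was lost when any of the 4 cDNA libraries was left out. In Direct RNA, Zim1 had 0 and 1 reads against 6 and 11, a pooled ratio of 20.9 (exact 95% counting interval 3.28 to 874; adjusted p = 0.105).

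Mest and Plagl1, each the only listed gene of its domain, rose on both platforms. Mest (chr6:30723547-30748465, plus strand), a paternally expressed enzyme of the hydrolase fold that is abundant in mesoderm, was at 141 and 129 CPM in Undiff and at 2060.2 and 1737 CPM in Day4 in Direct RNA. It rose by 3.68 on the log2 scale (SE 0.28, adjusted p = 2.72e-35), and in cDNA by 3.29 (SE 0.41, adjusted p = 2.62e-13), from 35.8 and 36.9 CPM to 391 and 542 CPM. Its replicates were close to each other in every group.

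Plagl1 (chr10:13060504-13131694, plus strand), a paternally expressed zinc finger transcription factor that acts on other imprinted genes, had 4 and 4 reads in Undiff and 53 and 124 in Day4 in Direct RNA. The log2FC was 4.33 (SE 0.65, adjusted p = 3.07e-09). In cDNA it had 0 and 4 reads in Undiff and 71 and 178 in Day4 (5.05, SE 0.83, adjusted p = 8.31e-08). The states did not overlap on either platform. Without Undiff replicate 2 the Direct RNA value was 3.49, and leaving out either Undiff replicate gave 4.42 or 5.67 in cDNA.

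The promoters of these genes are of interest because ZFP57, the zinc finger protein that keeps methylation at imprinting control regions, binds the hexamer TGCCGC when its CpG is methylated. The windows below are the 250 bases before a RefSeq start (GRCm38.p6, plus strand), with each copy of the hexamer in capitals. It is read there on the other strand, as GCGGCA. The Mest window is chr6:30737800-30738049 and its copies begin 242 and 67 bases before the start. The Plagl1 window is chr10:13090582-13090831 and its copy begins 90 bases before the start.
Mest: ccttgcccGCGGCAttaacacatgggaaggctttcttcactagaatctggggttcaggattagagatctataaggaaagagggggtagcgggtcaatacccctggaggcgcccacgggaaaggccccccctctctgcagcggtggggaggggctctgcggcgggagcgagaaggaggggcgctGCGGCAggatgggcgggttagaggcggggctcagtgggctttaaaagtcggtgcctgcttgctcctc
Plagl1: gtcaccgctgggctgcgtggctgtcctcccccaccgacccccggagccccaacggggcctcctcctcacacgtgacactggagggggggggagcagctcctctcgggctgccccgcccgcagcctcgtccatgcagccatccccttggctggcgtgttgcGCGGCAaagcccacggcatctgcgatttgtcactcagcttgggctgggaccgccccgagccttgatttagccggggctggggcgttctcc
Both strands were searched over 300 bases (250 before to 50 after a start). The hexamer was found at 12 of the 37 imprinted genes with a RefSeq window, beside 13.1% of all 27025 genes. By window, 11.6% of all 32851 held it. A gene counted if any of its windows held the hexamer, and windows per gene were not matched. Snrpn and Snurf both counted for the same window. Of the 13 genes that rose on both platforms 10 had a window and 5 held the hexamer, namely Igf2, Mest, Grb10, Plagl1 and Nnat. The 59 windows of imprinted genes had a median of 13 CpG dinucleotides, and all windows a median of 7; windows matched for CpG were not compared. A match is a description of the letters and no evidence of binding.

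Zfp57 itself was among the 25 genes of imprint maintenance, the enzymes and DNA-binding proteins that keep or remove DNA methylation at imprints. In Direct RNA 9 of these fell and 0 rose among 23 with the mean count, where 7.67% of all genes fell, and in cDNA 11 fell and 1 rose among 24, where 9.24% of all fell. On both platforms 9 were lower, against 5.18% of all. Zfp57 fell by 2.75 on the log2 scale in Direct RNA (adjusted p = 4.83e-06) and by 1.46 in cDNA (adjusted p = 0.00881). By the mean size of the log2FC over both platforms, the genes furthest down were Zfp42 (log2FC -6.24 in Direct RNA and -5.33 in cDNA), the methyltransferase cofactor Dnmt3l (-5.07 and -5.46), the methyltransferase Dnmt3b (-4.44 and -3.96), Dppa3, which protects methylation in the early embryo (-2.47 and -3.81), and the methylcytosine oxidase Tet1 (-2.83 and -2.56). Zfp42 is also one of the pluripotency markers, whose levels fell at the same time. DNA methylation and allele use were not measured here.

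In the Peg10-Sgce domain on chr6, Asb4 (chr6:5383386-5433022, plus strand), a subunit of ubiquitin ligases that is maternally expressed and known from embryonic vessels and placenta, was almost absent from Undiff. It had 0 and 2 reads in Undiff and 87 and 209 in Day4 in Direct RNA, a pooled ratio of 182 (exact 95% counting interval 50.0 to 1510; adjusted p = 2.55e-13). In cDNA it had 0 reads in Undiff and 220 and 595 in Day4, at least 243-fold higher over the pooled depth (adjusted p = 9.98e-13).

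Sgce (chr6:4674350-4747207, minus strand), the paternally expressed epsilon-sarcoglycan of cell membranes, was at 8.61 and 6.61 CPM in Undiff and at 63.5 and 61.0 CPM in Day4 in Direct RNA. Its log2FC was 2.72 (SE 0.79, adjusted p = 0.0083) there and 2.35 (SE 0.56, adjusted p = 0.000642) in cDNA, where it went from 11.6 and 12.9 CPM to 94.1 and 70.3 CPM. The groups were well apart, but the depth was low, with 3 and 6 reads in the Direct RNA libraries of Undiff. The Direct RNA call was lost when any of the 4 libraries was left out (2.32 to 2.63), and the cDNA call without Undiff replicate 2 or Day4 replicate 1 (1.96 to 2.27).

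Peg10 (chr6:4747306-4760517, plus strand), a paternally expressed gene derived from a retrotransposon and needed in the placenta, starts next to Sgce on the other strand. It rose in cDNA alone, from 163 and 154 CPM to 426 and 517 CPM (log2FC 1.22, SE 0.38, adjusted p = 0.0161), and that call was lost when any of the 4 cDNA libraries was left out (1.08 to 1.29). In Direct RNA it was at 40.2 and 72.7 CPM in Undiff and at 183 and 62.4 CPM in Day4, where the replicates overlap (0.89, SE 0.59, adjusted p = 0.444). That value went from 0.07 without Day4 replicate 1 to 1.45 without Day4 replicate 2. Ppp1r9a, the actin-binding protein neurabin, was not called, with a log2FC of 1.32 (SE 1.13, adjusted p = 0.630) in Direct RNA and, in cDNA, of 0.77 (SE 0.53, adjusted p = 0.473).

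Grb10 (chr11:11930508-12038683, minus strand), an adaptor protein that restrains signalling by the insulin and IGF1 receptors, was at 23.0 and 39.7 CPM in Undiff and at 533 and 164 CPM in Day4 in Direct RNA. It rose by 3.16 on the log2 scale (SE 0.54, adjusted p = 2.9e-07), and without Day4 replicate 1 the value was 2.13 and the call was lost. In cDNA it rose by 3.44 (SE 0.45, adjusted p = 3.47e-12), from 33.7 and 49.8 CPM to 383 and 844 CPM. The Day4 replicate with the higher level was the first in Direct RNA and the second in cDNA. Its neighbour Ddc, the decarboxylase of dopamine and serotonin synthesis, was not called, with log2FC values of 1.14 (SE 0.64, adjusted p = 0.316) in Direct RNA, where the edgeR test called it higher, and 0.12 (SE 0.55, adjusted p = 0.951) in cDNA.

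Of the 7 genes of the Snrpn-Ube3a domain on chr7, Ndn (chr7:62346569-62350262, plus strand), the paternally expressed growth-restraining protein necdin, rose on both platforms. It was at 8.61 and 22.0 CPM in Undiff and at 212 and 241 CPM in Day4 in Direct RNA, a log2FC of 3.50 (SE 0.54, adjusted p = 7.74e-09). In cDNA it went from 7.38 and 4.79 CPM to 115 and 115 CPM (3.84, SE 0.58, adjusted p = 4.62e-09). The Day4 replicates were close to each other on each platform, and the Direct RNA value was 4.17 without Undiff replicate 2.

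Peg12 (chr7:62461871-62464510, minus strand), a paternally expressed gene of the Frat family that acts in Wnt signalling, rose in cDNA, from 26.4 and 62.2 CPM to 183 and 193 CPM (log2FC 1.72, SE 0.48, adjusted p = 0.00513). The call was lost without Undiff replicate 1, Day4 replicate 1 or Day4 replicate 2 (1.23 to 1.78) and kept without Undiff replicate 2 (2.32). In Direct RNA it had 1 and 1 reads against 5 and 7, a pooled ratio of 7.38 (exact 95% counting interval 1.64 to 67.9), and did not reach the mean count.

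Ube3a, the ubiquitin ligase that is imprinted in neurons, was between 33.9 and 48.8 CPM in Direct RNA and between 13.7 and 33.7 CPM in cDNA, with log2FC values of -0.36 (SE 0.66) and 0.24 (SE 0.69). Mkrn3, a ubiquitin ligase, had at most 13 reads in a library and Magel2, a partner of such ligases, at most 1. Snrpn, a spliceosome protein, and Snurf, read from the same transcript, were at 0 in all 8 libraries. The counting gives a read that falls on exons of more than 1 gene to none of them, and in the GENCODE annotation every Snurf exon base lies within Snrpn, as 216 of its 2159 exon bases. No limit on the RNA of Snurf can be read from its count of 0. How Snrpn reads were assigned under the annotation used for counting was not tested, so no limit is given for it.

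Nnat (chr2:157560078-157562522, plus strand), a paternally expressed membrane proteolipid of the endoplasmic reticulum, was at 17.2 and 15.4 CPM in Undiff and at 381 and 495 CPM in Day4 in Direct RNA. It rose by 4.53 on the log2 scale (SE 0.47, adjusted p = 4.69e-19). In cDNA it had 4 and 2 reads in Undiff and 115 and 155 in Day4, a log2FC of 4.58 (SE 0.74, adjusted p = 4.62e-08), or 5.37 without Undiff replicate 1 and 3.52 without Undiff replicate 2. Blcap, the gene in whose intron Nnat lies, had log2FC values of 1.06 (SE 0.76, adjusted p = 0.505) and 1.52 (SE 0.57, adjusted p = 0.06), which the edgeR test called higher in cDNA.

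Gnas (chr2:174284320-174346744, plus strand), which encodes the stimulatory G protein alpha subunit and several imprinted isoforms, rose on both platforms. In Direct RNA it was at 249.7 and 267 CPM in Undiff and at 2600.0 and 2719.7 CPM in Day4 (log2FC 3.23, SE 0.26, adjusted p = 2.75e-32). In cDNA it was at 26.4 and 71.3 CPM in Undiff and at 216 and 245 CPM in Day4 (1.86, SE 0.48, adjusted p = 0.00211), and the call was lost without Undiff replicate 1, Day4 replicate 1 or Day4 replicate 2 (1.32 to 1.88) and kept without Undiff replicate 2 (2.61). The gene count does not separate its imprinted isoforms from the others.

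In the Igf2r-Airn domain on chr17 (Igf2r at chr17:12682406-12769664, minus strand), Airn (chr17:12741311-12860136, plus strand), the paternally expressed noncoding RNA that runs antisense to Igf2r, had no reads in any Undiff library. It had 3 and 10 reads in the Direct RNA libraries of Day4 (adjusted p = 0.141), where it was not called. In the cDNA libraries of Day4 it had 25 and 19 reads (adjusted p = 0.00402). With Undiff set at 3 reads, Day4 was 5.33-fold higher over the pooled depth in Direct RNA and 13.1-fold higher in cDNA. The cDNA call was lost without Undiff replicate 2, Day4 replicate 1 or Day4 replicate 2.

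Igf2r itself, the maternally expressed receptor that removes IGF2 from the cell surface, was not called. Its log2FC was 1.34 (SE 0.68, adjusted p = 0.241) in Direct RNA, from 23.0 and 19.8 CPM to 70.6 and 52.9 CPM, where the edgeR test called it higher, and -0.56 (SE 0.60, adjusted p = 0.758) in cDNA, from 119 and 30.6 CPM to 47.8 and 81.4 CPM. The states are apart in Direct RNA and overlap in cDNA. Among 9 other genes of the IGF pathway, of which 8 had the mean count on each platform, 3 rose and 1 fell on each, where 9.54% and 7.67% of all genes did in Direct RNA and 8.69% and 9.24% in cDNA. Igf1 was the 1 gene higher on both and Igf2bp1 the 1 lower on both, while Igf2bp2 and Igf2bp3 were called higher in Direct RNA alone and Igf1r and Irs1 in cDNA alone.

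The single-gene and small domains that remain showed no call on either platform. Impact, a regulator of the translational stress response, had log2FC values of -0.30 (SE 0.54) in Direct RNA and -0.38 (SE 0.39) in cDNA. Commd1, a copper and NF-kB regulator, had -0.28 (SE 0.41) and -0.12 (SE 0.44). Slc38a4, an amino acid transporter, had -0.18 (SE 0.38) and -0.19 (SE 0.51). The states overlap in each of these, and the errors leave room for a change about as large as the fold threshold.

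Zrsr1, a splicing factor gene on the other strand of Commd1, was between 11.0 and 37.3 CPM in Direct RNA and between 1.05 and 9.10 CPM in cDNA. Trappc9, a vesicle-trafficking subunit, had log2FC values of 0.89 (SE 0.77, adjusted p = 0.640) and 1.27 (SE 1.09, adjusted p = 0.634), and Peg13, the noncoding RNA in its intron, had 2 and 1 reads in the Direct RNA libraries of Day4 and 0 in the others. Zdbf2, a paternally expressed zinc finger gene, had log2FC values of 0.38 (SE 0.79) in Direct RNA and, in cDNA, of -1.24 (SE 0.65, adjusted p = 0.263), where both Day4 libraries (9.86 and 17.3 CPM) were below both Undiff libraries (25.3 and 27.8 CPM). In all, 27 of the 46 genes had no call on either platform, of which 8 were under the mean count on both.

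Whether the state change differed between the platforms was tested as an interaction over all 8 libraries. A call here needed only an adjusted p of 0.05 or less, and the log2 differences were not shrunken. By DESeq2 0 of the 46 genes were called, and 2 of the 43 with a read had an unadjusted p under 0.05. Over all 17267 genes with a read, 161 or 0.932% did. The calls over all genes were 0.0116% for a smaller rise in cDNA and 0% for a larger one. Both of the 2 had a smaller change in cDNA, namely Gnas with a difference of -1.36 (SE 0.53) and Igf2r with -2.06 (SE 0.94), both with an adjusted p of 1 after rounding. By edgeR 0 genes of the list were called, against 0.0811% of all genes with a smaller rise in cDNA and 0% with a larger one. An unadjusted p under 0.05 was found for 6 of the 43, against 460 or 2.66% of all 17267 genes. A gene called on 1 platform alone, such as Peg10, Peg12, Airn, Zim1 or Ascl2, was therefore not shown to change differently between the platforms.

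The levels of the imprinted genes were also compared between the platforms. With the state as a covariate, 11 genes were higher in cDNA and 9 lower by DESeq2, among 37 with the mean count, while 24.7% and 26.6% of all 10426 such genes were. The edgeR test gave 12 and 9, against 28.4% and 27.7%. These shares are near those of all genes. Peg12 was furthest up, by 4.63 on the log2 scale (SE 0.48, adjusted p = 1.18e-20). Impact followed with 4.36 (SE 0.25, adjusted p = 7.9e-65), at 63.7 to 86.0 CPM in the 4 Direct RNA libraries and at 745 to 1084 CPM in the 4 cDNA libraries. Meg3 was higher by 3.76 (SE 0.81, adjusted p = 1.87e-05), or by 2.87 without cDNA Day4 replicate 2, the library with 1972 of its reads, and by 4.46 without cDNA Day4 replicate 1.

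Furthest down in cDNA was Dlk1, by 2.67 (log2FC -2.67, SE 0.32, adjusted p = 4.25e-15), then Peg3 (-2.56, SE 0.40, adjusted p = 2.61e-09) and Gnas (-2.22, SE 0.32, adjusted p = 1.16e-10). For Dlk1 and Peg3 this rests on the Day4 libraries, where nearly all of their reads lie. The kit, the base-calling, the amount of RNA and the counting differed together between the platforms, so their parts in these differences cannot be told apart.

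**Figure D4:**
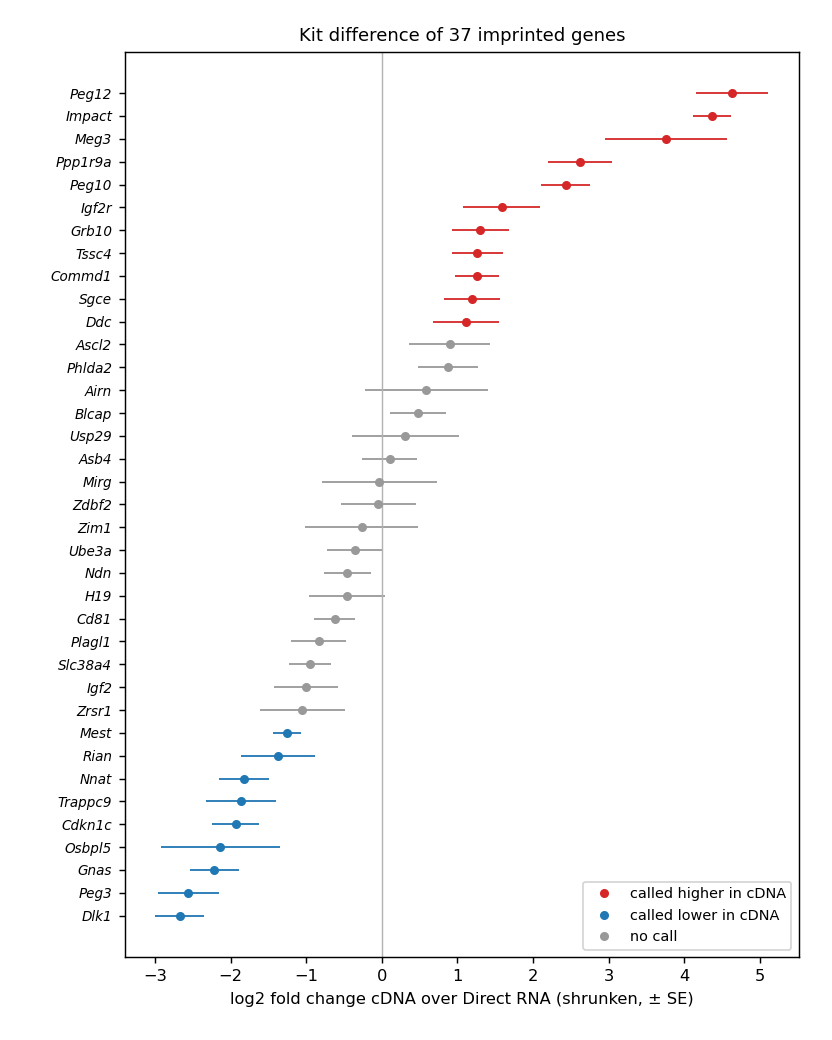
Points give the log2FC of cDNA over Direct RNA for the 37 imprinted genes with a mean count of at least 5, with bars of 1 SE and red or blue for those called higher or lower in cDNA. Peg12, Impact and Meg3 lie furthest to the right at 4.63, 4.36 and 3.76, and Dlk1, Peg3 and Gnas furthest to the left at -2.67, -2.56 and -2.22.

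Among the genes called between the platforms, some share exon bases with a gene on the other strand, which matters because Direct RNA was counted by strand and the strand setting for cDNA was not stated. Commd1 was higher in cDNA by 1.26 (SE 0.29, adjusted p = 7.47e-05) and shares 412 bases with Zrsr1, 6.94% of its exon bases in GENCODE. Tssc4 was higher by 1.26 (SE 0.33, adjusted p = 0.000719) and shares 11.9% with Trpm5. Mest was lower in cDNA (-1.25, SE 0.18, adjusted p = 1.09e-10) and shares 23.1% with Copg2, and Gnas shares 8.83% with its antisense transcript Nespas and 13.1% with Gm20721, on the other strand and not in the count tables. Cdkn1c was lower in cDNA (-1.93, SE 0.31, adjusted p = 5.19e-09) and shares 30.7% with Gm44732, an antisense gene that the count tables do not list. Nnat was lower (-1.82, SE 0.33, adjusted p = 3.18e-07) and shares 4.76% with Gm23134, and Meg3 shares 6.79% with Gm26906, also on the other strand and not listed. Rian was lower (-1.37, SE 0.49, adjusted p = 0.0161), a call lost without Direct RNA Undiff replicate 2 or Direct RNA Day4 replicate 2 (-1.29 to -1.02), and its exons hold small nucleolar RNA genes of the same strand. Reads that fell on more than 1 gene were 2.16% to 2.33% of the reads on genes, these included, in Direct RNA, and 7.65% to 8.45% in cDNA. The part that shared exons have in these differences was not tested.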

How the data were processed

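Per the files and the study's methods, the authors aligned the ONT reads to mm10 with minimap2, kept no secondary alignments and tallied reads per gene with htseq-count on the iGenomes UCSC annotation; what was deposited is raw read counts. Strand was used for Direct RNA, and the strand setting for cDNA is not given in the sources used here. Base-calling was by albacore or Guppy, with adapters and chimeras removed by Poreplex for Direct RNA and adapters by porechop for cDNA. No normalization had been applied, and the 5 counters of unassigned reads stayed out of library sizes and tests. Short-read libraries were not analysed here.

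Each platform was fitted over all 24421 genes with DESeq2 1.42.0 in R 4.3.3 (Wald test, shrunken log2 fold changes, Cook's cutoff and independent filtering off, Benjamini-Hochberg adjustment over all genes tested). The interaction and the platform difference used all 8 libraries, the latter with the state as a covariate. The interaction was fitted without shrinkage and called by the adjusted p alone. Every p without another name is from these fits. With 2 libraries a group, precision rests on the spread pooled across genes. The edgeR 4.0.16 quasi-likelihood test with TMM factors was the alternative, beside TMM factors in DESeq2, no shrinkage, a filter at 10 reads, Cook's cutoff, the replicate number as a block and leaving out each library. The fits were tested on simulated data. No pair of replicates agreed within sampling noise, so each library was kept.

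All 46 genes are accounted for by domain; genes called on a platform are given with the values of each library, and those under the mean count by their reads. The platform comparison names the 3 largest differences each way and called genes with a shared exon. Other lists name at most 5 genes called on both platforms, and Zfp57 for its hexamer. The members and the lists were chosen with earlier results of these data known. Against groups with 0 reads a fold sets that group at 3 reads. The counting error of the other group and the spread of replicates are left out, so it is no lower limit. Gene positions and shared exons came from GENCODE vM21 (GRCm38), which is not the annotation used for counting, and sequences from RefSeq (GRCm38.p6).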

Additional observations from a re-analysis of the deposited data

How the results depend on the processing

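In Direct RNA the number of imprinted genes called higher was 13 and lay between 12 and 16 under the other tools and filters, and in cDNA it was 17 and lay between 15 and 20. The number called lower in Direct RNA went from 1 to 2 with edgeR, which added Ascl2. Leaving out each library gave 11 to 12 higher and 0 to 1 lower in Direct RNA, with 0 without Undiff replicate 2. In cDNA it gave 11 to 13 higher and 1 to 2 lower, with 11 higher without Day4 replicate 2. No direction of a called gene was reversed. With the replicate number as a block, 12 rose and 1 fell in Direct RNA, where Sgce lost its call (2.54), and 15 rose and 2 fell in cDNA, where Asb4 (fitted log2FC 8.52 without the block and 1.58 with it, adjusted p = 0.792) and Zim1 (4.40 and 3.64, adjusted p = 0.0936) lost their calls, both with 0 Undiff reads in cDNA, and the platform difference called 11 higher and 8 lower. The numbers come from the labels, which do not say that they mark a shared day, and over 1395 genes the deviations of same-numbered libraries correlated at 0.21 between the states in Direct RNA, 0.50 in cDNA, 0.12 between platforms in Undiff and -0.42 in Day4. With the Day4 numbers crossed, an alternative chosen after seeing the data, the platform difference called 11 higher and 9 lower, and the interaction called 0 genes under each setting. Depth limits the weakly expressed genes most: 14 of the 46 in Direct RNA and 9 in cDNA were under the mean count of 5, and the cause of the calls lost on leaving out a library was not tested. Such a fit assumes that the lone library varies like the other group.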

Other observations

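A further 40 genes that have been listed as imprinted in mouse, mostly in the placenta or in single tissues, were set beside the 46. Of these 2 rose and 3 fell in Direct RNA, among 15 with the mean count, where 9.54% and 7.67% of all genes did, and 1 rose and 2 fell in cDNA, among 20, where 8.69% and 9.24% did. With so few genes, these counts are not set apart from the shares of all genes. Axl, a receptor tyrosine kinase, rose on both platforms (log2 fold change 4.78 and adjusted p = 4.11e-09 in Direct RNA, adjusted p = 8.29e-05 in cDNA). It had 3 and 2 reads in Undiff and 53 and 108 in Day4 in Direct RNA, and 1 and 0 against 32 and 88 in cDNA. The Polycomb protein Sfmbt2, known as paternally expressed in extraembryonic tissue, fell on both (-3.82 and -3.18), and so did the chromatin protein Jade1 (-2.63 and -3.06). For Sfmbt2 and for Jade1, both Undiff libraries lay above both Day4 libraries in CPM on each platform.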
